A study of Mus musculus with 8 samples.

Results

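The transcriptome described here is that of the wild-type colon epithelium, taken as the baseline of a study of glycan enzymes. Its members are the 2 libraries labelled wild-type among the 8 libraries of the study, and each gives a level for 24346 gene symbols. The mice were of the strain C57BL/6J and had no treatment. A male gave the first library and a female the other, and neither age nor the number of animals behind each is given in the labels. The other 6 libraries, again a male and a female for each genotype, came from mice labelled St6galnac6-/-, B3galt5D116A and B3gnt7-/-, in which a sialyltransferase, a galactosyltransferase and an N-acetylglucosaminyltransferase were altered. RNA came from epithelial cells of the colon, and levels are in FPKM, fragments counted per kilobase of transcript and corrected for library size, so that genes can be compared per length.

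The lining of the colon is a single sheet of cells folded into crypts. Absorptive colonocytes take up water, salts and the fatty acids made by bacteria, goblet cells secrete the mucus that keeps bacteria at a distance, and rare enteroendocrine and tuft cells sense the lumen and release signals. Stem cells at the crypt base renew all of them.

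The FPKM sums were 612878 in the male library and 589732 in the female library, within the 518482 to 639537 of all 8. At 1 FPKM or more stood 11392 genes in the male and 11483 in the female. Over the mean of both libraries, 6598 genes reached 10 FPKM, 968 reached 100 FPKM and 108 reached 1000 FPKM. The 317 highest genes held 50% of the FPKM sum and 4130 held 90%. Protein-coding genes carried 95.5% of the sum, and the 85 listed ribosomal protein genes alone carried 14.4%. Read counts were not part of these tables, so depth is unknown. Among 809 genes under 0.15 FPKM in both libraries, 274 (33.9%) shared the most frequent ratio. It would put the depth of the female library at 1.05 times that of the male if the scaling followed depth, but the scaling is not given. Listed at 0 were 9175 genes in the male and 8901 in the female library, the ribosomal protein gene Rpl26 among them, and a 0 may be a failed estimate.

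The label of the samples was compared with marker genes. All 19 colonocyte markers in the tables and all 17 goblet cell markers were at 1 FPKM or more, with median levels of 453 and 100.1 FPKM. Epcam, an adhesion protein of epithelia, was at 953 FPKM in the male and 876 FPKM in the female library. Most markers of the tuft cell, a chemosensory type, were low, and 2 of 14 reached 1 FPKM. Those were Cd24a, high at 162 and 181 FPKM, and Ltc4s, at 1.07 and 1.78 FPKM. The defining ones Trpm5, Dclk1 and Pou2f3 stood at means of 0.626, 0.427 and 0.370 FPKM. Stem cell and cycling cell markers were intermediate. Lgr5, a receptor that marks crypt base stem cells, was at 1.37 and 2.98 FPKM, and Mki67, a nuclear protein of cycling cells, at 21.2 and 24.9 FPKM.

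Markers of cells from outside the epithelium were low in sum. The 15 markers of T cells and intraepithelial lymphocytes summed to 32.5 FPKM in the male and 25.8 FPKM in the female library, with Cd3e, a chain of the T cell receptor complex, at 0.837 and 0.795 FPKM. The 8 markers of B and plasma cells summed to 0.258 and 0.556 FPKM. The fibroblast list, with 12 genes, summed to 12.1 and 10.2 FPKM, the smooth muscle list to 6.90 and 6.20 FPKM and the list for enteric glia and neurons to 0.873 and 0.996 FPKM. Sox10 of glia, Kdr of endothelium, Cpa3 of mast cells and S100a8 of granulocytes were listed at 0 in both libraries. Other members of these lists were not. The endothelium list summed to 3.64 and 5.03 FPKM, with Pecam1 at 0.846 and 1.25 FPKM and Lyve1 at 1.42 and 2.12 FPKM. Kit, on the list for mast cells and granulocytes, was at 9.40 and 14.4 FPKM. The myeloid list, with 14 genes, summed to 29.9 and 28.2 FPKM, of which Cd14 held 19.1 and 19.5 FPKM. Erythrocyte genes summed to 50.1 FPKM in the male and 19.7 FPKM in the female. In bulk RNA of this kind, fewer cells of a type and less RNA per cell cannot be told apart.

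**Figure D1:**
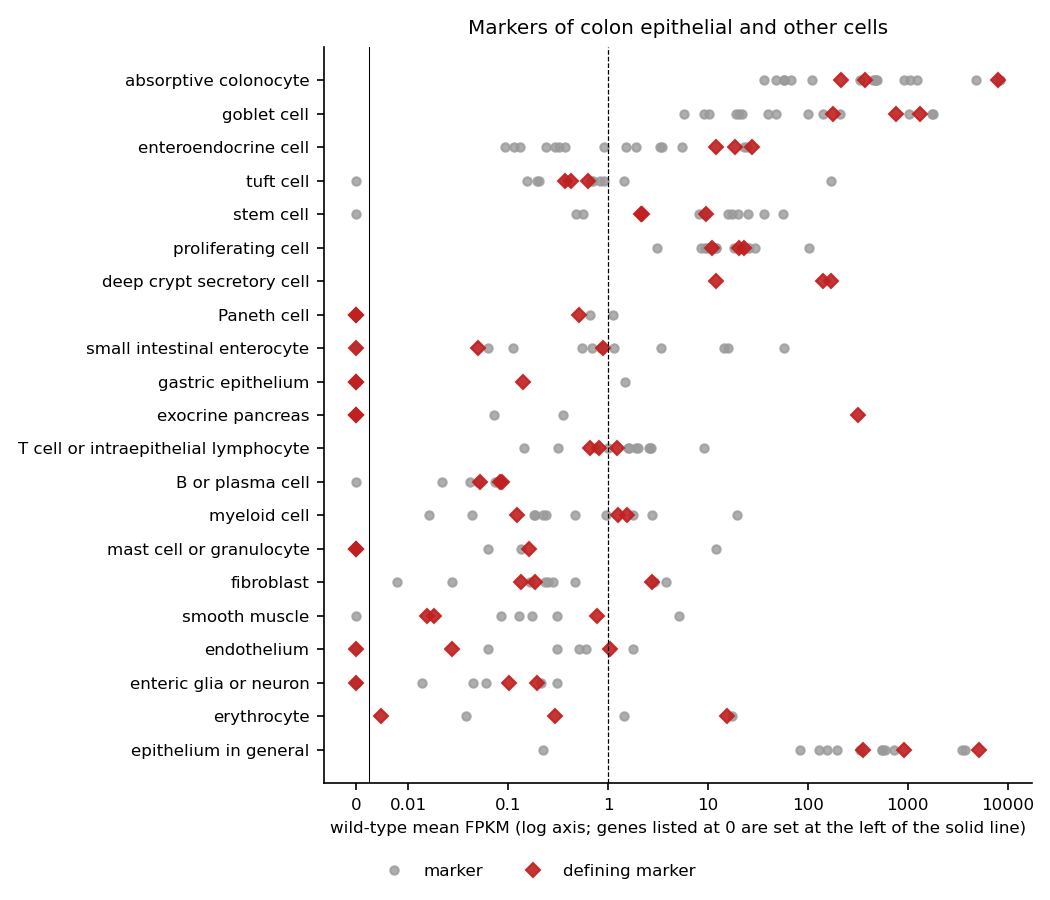
Wild-type mean FPKM (log axis) of each marker gene, 1 row per cell type, with defining markers as red diamonds and the dashed line at 1 FPKM. All colonocyte and goblet cell markers lie right of the line, while 2 of 14 tuft cell markers and none of the 8 for B and plasma cells do.

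Most markers of neighbouring organs were under 1 FPKM. Of the 9 Paneth cell genes 6 were listed at 0, and the stomach genes Gif and Gkn1 and the pancreas genes Cpa1 and Prss2 were at 0 too. Cela1, an elastase named for the pancreas, stood at 355 and 287 FPKM, the only pancreas gene of 11 at 1 FPKM or more. Hoxb13, a posterior homeobox factor, was at 226 and 198 FPKM, while Hoxc6 was at 0.0743 FPKM in the male and listed at 0 in the female. The labels do not give the segment of the colon. Lct, Sis and Apoa4, which define enterocytes of the small intestine, were at a mean of 0.0493 FPKM, a mean of 0.897 FPKM and 0. Of the 14 genes on that list 5 reached 1 FPKM, with the glucose carrier Slc5a1 at 53.0 and 62.4 FPKM, the bile acid carrier Slc10a2 at 13.9 and 17.8 FPKM and the bile acid binding protein Fabp6 at 6.70 and 22.0 FPKM.

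The most abundant transcript was Lypd8, which encodes a surface protein of colonocytes known to bind flagellated bacteria and hold them off the epithelium. It was at 8637 FPKM in the male and 8015 FPKM in the female library (8326 ± 440.3 FPKM, SD, n = 2), or 1.38% of the FPKM sum. The gene lies at chr11:58379043-58390728 on the plus strand of mm10. Car1, a cytosolic carbonic anhydrase that interconverts carbon dioxide and bicarbonate, followed at 7997 and 7792 FPKM. Krt8, a keratin of simple epithelia, was next at 5508 and 4685 FPKM. Guca2a, which encodes the peptide guanylin that regulates salt and water secretion, came after it at 5067 and 4481 FPKM. Both libraries placed these 4 genes in the same order.

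The next ranks mixed housekeeping and epithelial genes. Eef1a1, a translation elongation factor, was at 3958 and 4403 FPKM, and Lgals4, a galectin of the gut that binds sugar chains, at 3954 and 3481 FPKM. The cytoskeletal actin Actg1 and the keratin Krt19 had means of 3555 and 3455 FPKM. Among the 30 highest were 8 genes of ribosomal proteins by name (Rplp1, Rpl41, Rps29, Rps27rt, Rps18, Rpl28, Rpl38 and Rps12). The iron store genes Fth1 and Ftl1 had means of 2187 and 2125 FPKM. Those with a known gut role were Klk1, a kallikrein protease, at 2572 and 2660 FPKM, Crip1, a small zinc-binding protein of the intestine, at 2289 and 2049 FPKM, Pigr, the receptor that carries antibodies into the lumen, at 1739 and 1934 FPKM, and Zg16, a mucus lectin that binds Gram-positive bacteria, at 1870 and 1741 FPKM. S100a6, Tpt1, Cox4i1, Lgals3, Actb, Myl6 and Ckmt1 were also among them, with means from 1902 to 2626 FPKM. The 10 highest genes held 7.88% of the FPKM sum and the 30 highest 15.1%. The libraries shared 9 of their 10 highest, 27 of their 30 highest and 94 of their 100 highest genes. Of the 30 highest by the mean, 20 were also among the 30 highest of every one of the 6 mutant libraries.

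**Figure D2:**
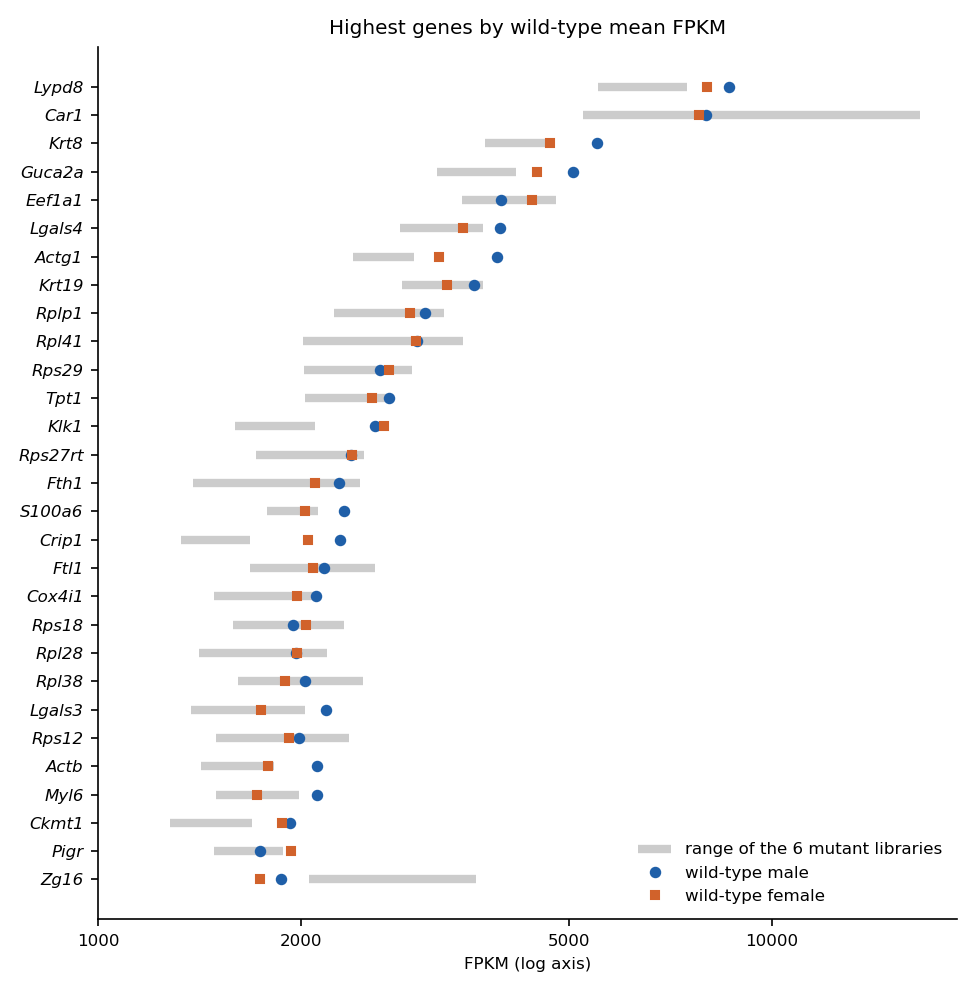
FPKM (log axis) of all but 1 of the 30 highest genes in the male (blue circles) and female (orange squares) wild-type libraries, over the range of the 6 mutant libraries (grey bars). The points of both libraries lie close together for most genes, with Lypd8 and Car1 standing above all others.

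Promoter windows show how 4 leading genes begin, 1 each from the mucus, keratin, transcription factor and hormone families. Each is a RefSeq window of GRCm38.p6 on the strand of the gene, from 250 bases before to 50 after the annotated start, 5′ to 3′. Lypd8 has 2 such windows, and the first is shown. Capitals mark the core promoter motif TATANA, with N for any base. The windows lie at chr11:58378782-58379081 (plus strand) for Lypd8, chr15:102004293-102004592 (minus strand) for Krt8, chr12:85473640-85473939 (plus strand) for Fos and chr4:119637482-119637781 (plus strand) for Guca2a.
Lypd8: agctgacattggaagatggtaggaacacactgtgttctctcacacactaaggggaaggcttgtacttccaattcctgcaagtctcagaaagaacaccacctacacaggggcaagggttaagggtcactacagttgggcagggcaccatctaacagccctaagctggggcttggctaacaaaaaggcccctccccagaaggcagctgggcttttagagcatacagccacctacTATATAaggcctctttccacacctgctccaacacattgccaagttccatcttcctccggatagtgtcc
Krt8: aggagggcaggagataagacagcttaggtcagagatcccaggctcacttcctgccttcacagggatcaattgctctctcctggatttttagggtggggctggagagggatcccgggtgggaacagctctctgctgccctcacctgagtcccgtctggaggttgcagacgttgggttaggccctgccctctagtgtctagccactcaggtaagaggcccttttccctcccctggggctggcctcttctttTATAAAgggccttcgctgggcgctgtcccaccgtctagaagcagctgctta
Fos: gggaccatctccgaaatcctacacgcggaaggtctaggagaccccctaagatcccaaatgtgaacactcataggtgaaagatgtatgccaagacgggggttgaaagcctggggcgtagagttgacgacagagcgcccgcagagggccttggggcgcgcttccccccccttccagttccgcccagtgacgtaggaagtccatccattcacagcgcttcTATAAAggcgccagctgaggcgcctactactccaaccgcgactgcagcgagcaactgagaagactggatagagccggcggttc
Guca2a: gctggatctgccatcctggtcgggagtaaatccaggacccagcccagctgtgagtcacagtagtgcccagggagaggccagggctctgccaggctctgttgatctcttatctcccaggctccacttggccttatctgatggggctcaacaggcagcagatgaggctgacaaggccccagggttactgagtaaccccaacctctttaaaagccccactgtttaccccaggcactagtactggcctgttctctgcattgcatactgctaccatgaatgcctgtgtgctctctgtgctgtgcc
In the windows shown, the motif began at position -18 from the start in Lypd8, at -33 in Fos and at -1 in Krt8, and these letters are not in the Guca2a window. On the strand of the gene, a motif beginning between -40 and -15 was found in 3.81% of 20754 windows of 17191 symbols. By wild-type mean level the share was 7.19% of windows of genes listed at 0, 4.04% above 0 and under 1 FPKM, 1.64% from 1 to 10 FPKM, 1.71% from 10 to 100 FPKM, 5.21% from 100 to 1000 FPKM and 10.9% (10 of 92) at 1000 FPKM or more. Windows with the motif were thus most frequent at both ends of the range of levels. In the top class it was in 3 of 39 windows of ribosomal protein genes and in 7 of 53 others. A match describes letters and is not a measured site.

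Families were compared by their highest member. Of 70 families with a member at 1 FPKM or more, 66 had the same highest member in both wild-type libraries. In 60 the lower of its values exceeded the higher value of the next gene. In 31 families that gene held over 50% of the family sum and in 9 over 90%. The 4 families in which the libraries disagreed had close rivals. On the chloride channel list they were Clic1 and Clca1, the latter a protease secreted with mucus. The others were Gcnt3 and C1galt1 among O-glycan core enzymes, Gal3st1 and Hs6st1 among carbohydrate sulfotransferases, and Rplp1 and Rpl41 among ribosomal proteins. In the mutants, 49 of the 70 had the same highest member in all 6 libraries.

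**Figure D3:**
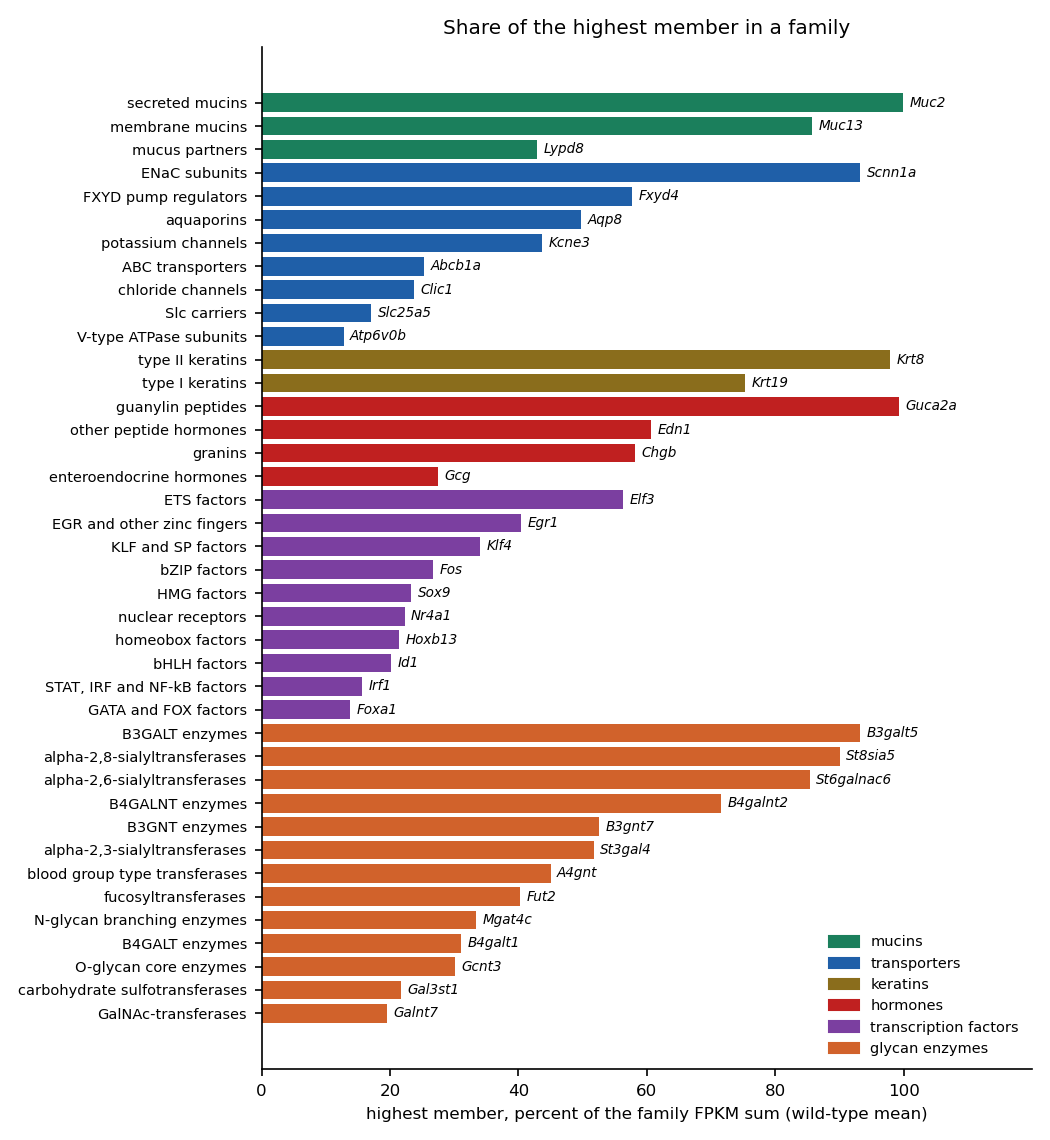
Highest member of the families shown of mucins, transporters, keratins, hormones, transcription factors and glycan enzymes, as a percent of the family's FPKM sum (wild-type mean, 2 libraries). Muc2, Guca2a and Krt8 hold nearly all of their families, while Atp6v0b, Foxa1 and Irf1 hold the smallest shares.

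Among the gel-forming mucins, 1 gene made up nearly the whole family. Muc2, the polymer that builds the colonic mucus layer, was at 1399 and 1250 FPKM and held 99.98% of the sum of 5 secreted mucins. Muc6 stood at a mean of 0.241 FPKM, and Muc5ac, Muc5b and Muc19 were listed at 0 in both libraries. Muc13, a transmembrane mucin of the apical surface, led the membrane mucins at 813 and 744 FPKM, or 85.8% of their sum. Cd164, a small sialomucin, was at 97.0 and 107 FPKM, Muc4 at 18.7 and 23.3 FPKM and Muc1 at 3.44 and 4.47 FPKM. The order of these 4 was the same in both libraries, with no overlap between neighbours.

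The list of mucus and surface partners was led by Lypd8, Klk1 and Zg16, followed by Agr2, an endoplasmic reticulum protein needed for mucin folding, at 1656 and 1862 FPKM. Dmbt1, a scavenger receptor protein that binds bacteria, was at 1240 and 1514 FPKM, and Tff3, the trefoil peptide of goblet cells, at 817 and 695 FPKM. Clca1, a protease secreted with mucus, stood at 189 and 228 FPKM, and Fcgbp, a large protein of the mucus gel, at 182 and 176 FPKM. Per length, Lypd8, Klk1, Zg16 and Agr2 exceeded Muc2 in both libraries, Dmbt1 did so in the female library alone, and Tff3, Clca1 and Fcgbp were below it in both.

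Of 377 genes named as solute carriers (Slc), 209 were at 1 FPKM or more. The highest were mitochondrial: Slc25a5, the ADP/ATP carrier, at 1581 and 1533 FPKM, and Slc25a3, the phosphate carrier, at 776 and 736 FPKM. The 330 carriers outside the Slc25 group summed to 5688 FPKM in the male and 5879 FPKM in the female. Slc26a3, the chloride and bicarbonate exchanger of the colonocyte surface, led them at 362 and 377 FPKM. The phosphate carrier Slc20a1 was at 345 and 332 FPKM, the amino acid carrier Slc6a14 at 313 and 357 FPKM, and Slc44a4, a thiamine pyrophosphate carrier of the colon, at 273 and 263 FPKM. Slc26a3 was above the others in both libraries, while Slc20a1 and Slc6a14 overlapped. Both carriers of short-chain fatty acids were present, with Slc5a8 at 120 and 134 FPKM and Slc16a1 at 120.4 and 120.5 FPKM.

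Ion pumps and channels drive the uptake of salt and water in the colon. Atp1b1, the beta subunit of the sodium pump, was at 519 and 602 FPKM. Fxyd4, a small regulator of that pump, was at 92.8 and 110 FPKM, above Fxyd3 at 64.8 and 81.9 FPKM. Of the 3 subunits of the epithelial sodium channel, Scnn1a was at 48.8 and 50.2 FPKM, Scnn1b at 3.64 and 2.85 FPKM and Scnn1g at 0.560 and 0.0710 FPKM. The channel subunits thus stood far apart in level, with 93.3% of their sum in Scnn1a. Aqp8, a water channel of colonocytes, was at 235 and 194 FPKM, Aqp4 at 139 and 168 FPKM and Aqp1 at 39.5 and 50.6 FPKM. Kcne3, the accessory subunit that keeps Kcnq1 potassium channels open, was at 169 and 139 FPKM, and Kcnq1 at 38.2 and 42.4 FPKM. Abcb1a, a drug efflux pump, led 51 ABC transporters at 213 and 200 FPKM. Of 25 genes of the V-type proton pump 18 reached 1 FPKM, and Atp6v0b, at 139 and 118 FPKM with 12.8% of the sum, overlapped Atp6v1f at 134 and 107 FPKM.

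Keratins form the filaments of epithelial cells in pairs of a type I and a type II chain. Krt8 held 97.9% of the sum of 24 type II genes, and Krt7 followed at 108 and 98.5 FPKM. Krt19 held 75.3% of the sum of 27 type I genes at 3616 and 3293 FPKM. Krt18 was at 667 and 526 FPKM and Krt20, found in differentiated intestinal cells, at 509 and 467 FPKM, with no overlap between them. Krt36, a keratin known from hair, stood at 34.4 and 27.9 FPKM. At 1 FPKM or more were 7 type I and 5 type II genes.

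Peptide hormones were led by guanylin, whose gene Guca2a held 99.2% of the guanylin pair. Guca2b, for uroguanylin, was at 31.9 and 40.9 FPKM. The hormones of enteroendocrine cells were far lower. Gcg, the precursor of glucagon-like peptides, was at 19.0 and 30.3 FPKM and Pyy, for peptide YY, at 18.1 and 27.4 FPKM. Sct, for secretin, stood at 15.4 and 15.7 FPKM and Insl5, a relaxin-type peptide of distal colon cells, at 11.0 and 13.0 FPKM. Gcg and Pyy overlapped, so neither was resolved as the highest. The granule proteins Chgb and Chga were at 16.9 and 12.3 FPKM in the male and at 38.4 and 25.2 FPKM in the female library. Among other peptide genes Edn1, for endothelin, was highest at 281 and 192 FPKM, and its relative Edn2 was at 113 and 107 FPKM.

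Fos, Atf3 and Jun had the highest levels of the 562 transcription factors listed. Fos, an immediate early gene and a partner in the AP-1 complex, was at 1501 and 1431 FPKM. Atf3, a stress-responsive factor of the same bZIP family, was at 1278 and 869 FPKM, Jun at 657 and 636 FPKM and Fosb at 401 and 352 FPKM. Egr1, another immediate early gene, led its zinc finger list at 547 and 490 FPKM. Nr4a1, an orphan receptor of that class, led the nuclear receptors at 355 and 288 FPKM, above Hnf4a, a master factor of the gut epithelium, at 245 and 211 FPKM. The vitamin D receptor Vdr was at 153 and 172 FPKM.

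Factors known from epithelial differentiation lay among and below these. Elf3, an epithelial ETS factor next after Jun, was at 591 and 522 FPKM and held 56.4% of its family. Klf4, linked to goblet cell and surface cell differentiation, was at 465 and 397 FPKM, overlapping Klf6 at 433 and 343 FPKM, while Klf5 of the crypt was at 156 and 179 FPKM. Among homeobox factors Hoxb13 was followed by the intestinal factors Cdx1, at 213 and 180 FPKM, and Cdx2, at 86.0 and 81.3 FPKM. Hoxb13 and Cdx1 overlapped. The inhibitory helix-loop-helix factor Id1 was at 319 and 304 FPKM, Hes1, a Notch target, at 112 and 133 FPKM, and Sox9, a crypt factor, at 23.2 and 26.5 FPKM. Foxa1 led the GATA and FOX lists at 39.4 and 36.1 FPKM, and Irf1 the STAT, IRF and NF-kB list at 89.3 and 88.5 FPKM.

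Mucin glycans are built stepwise, from a first N-acetylgalactosamine on the protein through core and chain sugars to sialic acid, fucose or sulfate at the ends. At the first step the sum was spread over several enzymes: 11 of 18 GalNAc-transferases reached 1 FPKM, led by Galnt7 at 53.9 and 60.9 FPKM with 19.6% of the sum. Galnt12 was at 47.7 and 47.3 FPKM and Galnt4 at 44.6 and 47.9 FPKM. For the cores, Gcnt3, a branching enzyme of mucin-producing cells, was at 39.7 and 40.1 FPKM, C1galt1 at 33.4 and 41.0 FPKM and its chaperone C1galt1c1 at 33.9 and 34.7 FPKM. B3gnt6, which makes core 3, was at 8.58 and 12.1 FPKM. The early steps were thus shared among several genes at similar levels.

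At several later steps 1 gene lay above the others of its family, and these genes include the 3 altered in the mutants. B3gnt7, which extends chains with N-acetylglucosamine, was at 215 and 190 FPKM and held 52.6% of its family, followed by B3gnt3 at 102 and 99.3 FPKM. B3galt5, a galactosyltransferase that makes type 1 chains, was at 117 and 105 FPKM and held 93.2% of its family. B4galt1 led the enzymes of type 2 chains at 35.8 and 41.5 FPKM. St6galnac6, which adds alpha-2,6-linked sialic acid, was the highest of all glycan enzymes listed, at 368 and 343 FPKM, with 85.4% of its family. These enzyme levels differed between the libraries by less than the gap to the next member of each family.

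Among the other capping enzymes, B4galnt2, which makes the Sda blood group structure, was at 235 and 261 FPKM with 71.5% of its family. St3gal4, an alpha-2,3-sialyltransferase, was at 111 and 188 FPKM, above St3gal6 at 66.4 and 89.5 FPKM. Fut2, the secretor fucosyltransferase, was at 52.9 and 70.7 FPKM, and Fut8, which adds core fucose to N-glycans, at 36.7 and 40.4 FPKM. The alpha-2,8-sialyltransferases were low: 1 of 6 reached 1 FPKM, St8sia5 at 1.89 and 5.61 FPKM. St6galnac1 was at 0.330 and 1.17 FPKM. Abo, the blood group transferase, was at 4.15 and 4.93 FPKM. The enzymes that add sulfate had no common leader: Hs6st1, which acts on heparan sulfate, was at 32.6 and 29.0 FPKM and Gal3st1, which acts on galactose, at 29.8 and 33.5 FPKM, so each was highest in 1 library. In N-glycan branching, Mgat4c was at 149 and 142 FPKM and Mgat4b at 133 and 123 FPKM, without overlap.

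**Figure D4:**
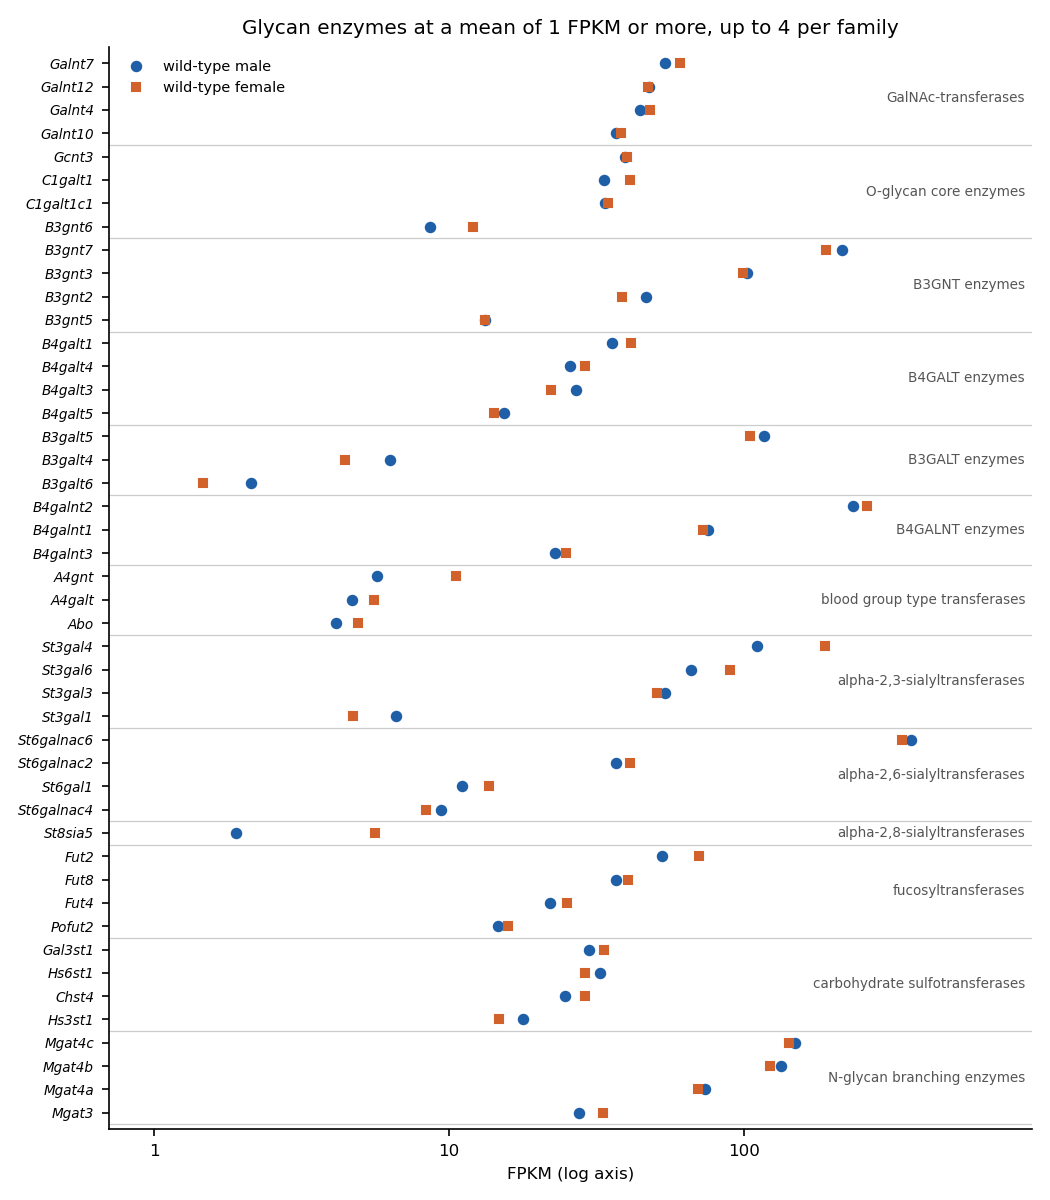
FPKM (log axis) of glycan enzymes at a mean of 1 FPKM or more, up to 4 per family, in the male (blue circles) and female (orange squares) wild-type libraries. St6galnac6, B4galnt2, B3gnt7 and B3galt5 stand apart in their families, while GalNAc-transferases and core enzymes lie at similar levels.

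Other families also had a clear leader. Car1 held 84.3% of the carbonic anhydrases, ahead of Car2 at 848 and 918 FPKM and the membrane-bound Car4 at 462 and 492 FPKM. Fabp2, the intestinal fatty acid binding protein, held 95.5% of its family at 434 and 471 FPKM, while Fabp1, known from the small intestine and liver, was at 0.712 and 0.676 FPKM. Of the galectins, which bind sugar chains, Lgals4 held 55.2%, and Lgals3 was at 2176 and 1743 FPKM. S100a6, a calcium-binding protein, led its family at 2318 and 2030 FPKM, followed by S100a10 at 742 and 630.3 FPKM. The metallothionein Mt1 was at 214 and 296 FPKM. Hspa8, a constitutive chaperone, led the heat shock proteins at 1473 and 1562 FPKM.

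Families of enzymes that process foreign and lipid-like compounds differed in how many members reached 1 FPKM. Of 98 cytochrome P450 genes 28 reached 1 FPKM and 44 were listed at 0 in both libraries. Cyp2c55 led them at 1407 and 1076 FPKM and held 58.2% of their sum, with Cyp2c65 next at 132 and 141 FPKM. Mgst3, a microsomal glutathione transferase, was at 1557 and 1506 FPKM, and all but 3 of the 24 genes of that family reached 10 FPKM. For conjugation with glucuronic acid, 7 of 20 genes reached 1 FPKM, and Ugt2b34 was at 225 and 236 FPKM and Ugt1a7c at 185 and 183 FPKM. Of 19 sulfotransferases 5 reached 1 FPKM, and the phenol sulfotransferase Sult1a1 was at 406 and 429 FPKM. Adh1, an alcohol dehydrogenase, was at 691 and 749 FPKM. Aldh1a1, which makes retinoic acid, stood at 156 and 182 FPKM, above Aldh1b1 at 113 and 136 FPKM.

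Of the junction and adhesion genes, 9 of 25 claudins, 6 of 27 cadherins and 11 of 27 integrins reached 1 FPKM. The highest claudin, cadherin, tetraspanin, annexin and integrin each lay above the next gene of its family in both libraries. Of the claudins of tight junctions, Cldn7 was at 783 and 684 FPKM, Cldn3 at 611 and 499 FPKM and Cldn4 at 180.3 and 129 FPKM. Cdhr5, a protocadherin of the brush border, was at 492 and 452 FPKM, above Cdh1, the cadherin of adherens junctions, at 355 and 358 FPKM. Ceacam1, an adhesion protein, held 91.5% of its family at 1009 and 1073 FPKM. Tspan1 led the tetraspanins at 954 and 885 FPKM, and Tspan8 was at 593 and 542 FPKM. Anxa2, a membrane-binding annexin, was at 749 and 593 FPKM. The integrin chain Itgb1 was at 66.9 and 63.7 FPKM, and the hemidesmosome chains Itgb4 and Itga6 were at 49.9 and 48.0 FPKM and at 47.9 and 45.6 FPKM.

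Signalling and defence genes spanned a wide range. Il18, a cytokine stored by epithelial cells, held 86.8% of the interleukins at 188 and 198 FPKM, and Il15, a growth factor for intraepithelial lymphocytes, was at 13.1 and 14.3 FPKM. Ccl6 led the chemokines at 133 and 164 FPKM, with Ccl28, which attracts plasma cells to mucosa, at 46.1 and 49.7 FPKM. Of the Toll-like receptors Tlr1 was at 34.6 and 35.3 FPKM and Tlr2, its partner for bacterial lipopeptides, at 13.4 and 12.2 FPKM. Serpinb6a, a protease inhibitor, was at 490.0 and 437 FPKM, and the lysosomal protease Ctsd at 216 and 199 FPKM overlapped Ctss at 211 and 199 FPKM. The EGF receptor ligand Areg was at 529.5 and 316 FPKM and Hbegf at 240.4 and 181 FPKM. Their receptors were lower, with Erbb3 at 52.9 and 76.9 FPKM, Erbb2 at 42.5 and 50.5 FPKM and Egfr at 9.87 and 11.6 FPKM. Fzd5 held 61.9% of the Frizzled receptors for Wnt at 37.0 and 39.4 FPKM, and Notch1 led the Notch genes at 7.17 and 7.19 FPKM, with the ligand Jag1 at 6.46 and 5.27 FPKM overlapping the ligand Dll1 at 5.15 and 5.63 FPKM.

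Some genes have near-identical copies, and how fragments were split between such copies was not tested. Rpl26 was listed at 0 in both libraries, while Gm15772, an annotated processed pseudogene, was at 1658 and 1672 FPKM. Their transcripts were identical at 436 of 438 aligned positions. Rps27 was at 8.60 and 4.54 FPKM and the copy Rps27rt, identical over 341 aligned bases, at 2376 and 2385 FPKM. The levels of these 4 genes, and with them the rank of Rps27rt among the 30 highest, are therefore uncertain. Rpl10l and Rpl39l were also listed at 0. Lgals6, a close relative of Lgals4, was listed at 977 and 973 FPKM. By name, other genes also have a copy among the processed pseudogenes. Rpl34 was at 19.9 and 27.4 FPKM and Rpl34-ps1 at 1277 and 1239 FPKM. Atp6v0c was at 17.4 and 54.2 FPKM and Atp6v0c-ps2 at 218 and 166 FPKM. These pairs were not aligned, and their levels are uncertain too, as is the place of Atp6v0c among the V-type pump genes.

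The libraries were compared over 11455 genes whose wild-type mean reached 1 FPKM, on the scale log2(FPKM + 1). This fold scale understates differences of low genes. Across genes, which are not independent replicates, Pearson's r was 0.984 and Spearman's rho 0.984. The median absolute difference was 0.14 on the log2 scale. Over 2-fold apart were 77 genes (0.672%), of which 44 were higher in the male and 33 in the female library. None of the 108 genes at 1000 FPKM or more was among them, and of the 860 between 100 and 1000 FPKM 4 were. For the male and female pairs of the mutants r over the same genes was between 0.977 and 0.988, so the wild-type pair lay within their range.

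Small RNA genes carried much of the disagreement. Of 36 microRNA, small nucleolar and related genes, 24 were over 2-fold apart and r was -0.02. Among genes with an annotated exon length under 200 bases 77.4% were over 2-fold apart, against 0.272% of those of at least 1000 bases. By the largest differences at a mean of at least 5 FPKM, Snora28, Mir1291 and Mir8094 were at 60.5, 45.5 and 45.5 FPKM in the male and listed at 0 in the female, while Snora31, Snord22 and Mir6391 were listed at 0 in the male and at 75.8, 49.7 and 33.0 FPKM in the female. Mir6386, Snora21, Mir1668 and Mir6481 likewise appeared in the male alone and Mir8097, Mir7-1, Mir6244 and Snora34 in the female alone. Without small RNA genes, 53 of 11419 genes (0.464%) were over 2-fold apart and r was 0.990.

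**Figure D5:**
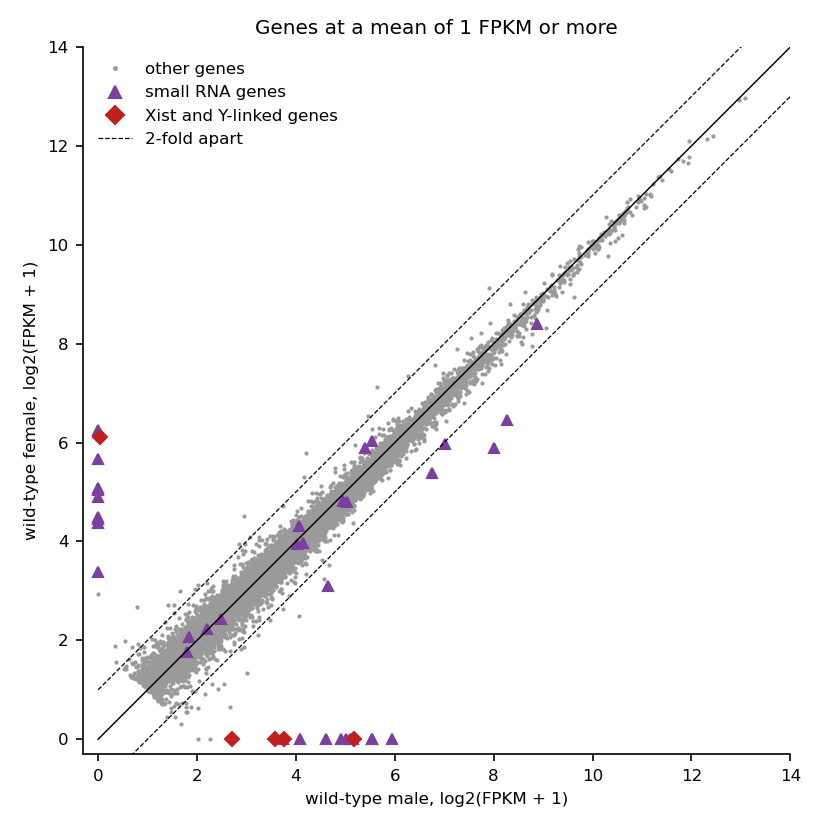
Levels on the log2(FPKM + 1) scale in the male (x axis) and female (y axis) wild-type libraries for 11455 genes, with the solid line for equal levels and dashed lines for a 2-fold difference. Small RNA genes (purple triangles) and Xist and Y-linked genes (red diamonds) lie off the line, many at 0 in a single library.

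Genes of the sex chromosomes followed the labels. Xist, which silences an X chromosome in females, was at 0.0233 FPKM in the male and 68.3 FPKM in the female, and the Y-linked genes Eif2s3y, Ddx3y and Kdm5d were at 35.3, 12.6 and 10.9 FPKM in the male and listed at 0 in the female. Besides these, the largest differences towards the male at a mean of at least 5 FPKM, outside small RNA genes, were in Gm10653 (15.7 and 4.67 FPKM), the globin genes Hba-a1 (22.8 and 8.48 FPKM) and Hbb-b1 (24.5 and 10.5 FPKM), the sterol transporter gene Abcg5 (8.47 and 3.28 FPKM) and Apoo-ps (12.3 and 5.22 FPKM). Towards the female, at the same minimum, they were in Atp6v0c, a proton pump subunit (17.4 and 54.2 FPKM), Fabp6, the bile acid binding protein (6.70 and 22.0 FPKM), the metallothionein Mt2 (49.0 and 139 FPKM), Reg3b, an antibacterial lectin (240.4 and 559 FPKM), Chgb, Rmnd1 (6.18 and 14.5 FPKM) and the clock output gene Dbp (3.08 and 7.64 FPKM). With 1 library per sex in wild-type these differences have no test of their own. The pseudogene Atp6v0c-ps2 was lower in the female, at 218 and 166 FPKM, and how fragments were split between it and Atp6v0c was not tested.

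The 6 mutant libraries give further male and female pairs. With limma and Benjamini-Hochberg adjustment, 6 of 11537 genes (0.052%) differed by sex there, namely Eif2s3y, Ddx3y, Kdm5d and Uty towards males and Xist and Snora65 towards females. Snora65, a small RNA gene, had a mean of 0 FPKM in wild-type, so the wild-type pair did not show that difference. By limma, Eif2s3y was higher in the males of all pairs (log2 difference 5.20, SE 0.14, adjusted p = 0.000907) and Xist lower (log2 difference -5.99, SE 0.22, adjusted p = 0.00151). None of the 12 other named genes outside small RNA genes passed. Fabp6, at a log2 difference of -0.91 (SE 0.34), had an unadjusted p of 0.0401 and an adjusted p of 1. Without a filter on low levels, 0 genes passed with limma and 616 had an unadjusted p under 0.05. Of the 77 genes over 2-fold apart in wild-type, 15 had the same sign in all 3 mutant pairs and 5 were over 2-fold apart the same way in each. Those 5 were Xist and Y-linked genes. As separate animals are not stated, p-values here reflect the spread among libraries, which may be technical.

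Wild-type was compared with the mean of the 3 mutants by limma, over all 8 libraries with sex as a term. Of 11537 genes 21 passed (0.182%), 16 of them higher and 5 lower in wild-type, and 1305 had an unadjusted p under 0.05. The count rested on single libraries: it was 5 without the wild-type male, 2 without the wild-type female, 4 without either St6galnac6-/- library, 11 without the B3galt5D116A male, 68 without the B3gnt7-/- male and 44 without the B3gnt7-/- female. The labels give no batch, so a batch shared by the wild-type libraries and the genotype cannot be told apart. The highest genes and family leaders were chosen by their wild-type level, which favours values above the mutants, so they are described here with no test.

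The median log2 difference from the mutants was 0.13 over the 30 highest genes and 0.13 over 69 family leaders, against 0.01 over all genes. Nr4a1, given above at 355 and 288 FPKM, had a mean of 121 FPKM over the mutants. Fxyd4, at 92.8 and 110 FPKM, had a mutant mean of 30.4 FPKM. All 6 mutant libraries were below both wild-type libraries for each, and both led their family in wild-type but in 0 of the 6 mutant libraries, where Hnf4a and Fxyd3 were highest instead. Edn1 was likewise above all 6 mutant libraries, by 1.15 on the log2 scale. Krt36, Atf3 and Fosb, which are among the 4 highest of their families, were higher in wild-type by 2.88, 1.23 and 1.05.

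The goblet cell marker sum was lower in both wild-type libraries than in any mutant library. The 17 markers summed to 7610 FPKM in the male and 7354 FPKM in the female, below the 10235 to 13698 FPKM of the mutant libraries. Of the 17, 11 were below all 6 mutant libraries in both wild-type libraries, against 7.23% of 11537 genes, and their median log2 difference from the mutants was -0.53 against 0.01 over all genes tested. Ang4, an antibacterial ribonuclease named here for being the only one to pass, stood at 3.98 and 7.56 FPKM, against 27.3 to 361 FPKM in the mutant libraries (log2 difference -3.97, SE 0.47, adjusted p = 0.0470, limma). Its adjusted p was 0.8999 without the wild-type male, 0.519 without the wild-type female, and 0.0540 and 0.0565 without the B3galt5D116A male and female. Muc2, Tff3, Agr2, Creb3l1, Bcas1 and Atoh1 overlapped the mutants, while Zg16, Spink4, Clca1, Fcgbp and Reg4 were below all of them. Of 16 proliferation markers 7 were below all mutant libraries and 0 passed, and their sums of 339 and 345 FPKM lay within the 336 to 627 FPKM of the mutants. Of 11 enteroendocrine genes tested 4 were below all mutant libraries, with a median log2 difference of -0.60. Of these Insl5 passed, at 11.0 and 13.0 FPKM against a mean of 34.6 FPKM (log2 difference -1.40, SE 0.11, adjusted p = 0.00807, limma). It did not pass once the wild-type male (adjusted p = 0.329, limma) or female (0.224), or either library of St6galnac6-/- (0.0582 and 0.0526), was left out. Of 19 colonocyte markers 4 were above all 6 mutant libraries, against 8.32% of all genes, and 0 passed. Of 40 tested bZIP factors 14 were above all 6 mutant libraries and 3 passed, against 8.32% and 0.182% of all genes. This was not particular to bZIP factors. Of 16 KLF and SP factors 10 were above all 6 and 0 passed, and of 33 nuclear receptors 9 were above and 2 passed. Whether the share of goblet cells plays a part in the other differences was not tested.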

How the data were processed

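RNA from colon epithelial cells was sequenced in 8 libraries. Per the labels' protocols, a TruSeq kit for stranded mRNA was used, on RNA from a miRNeasy Micro Kit. The authors deposited FPKM values, 1 per gene symbol and library, per the file headers. Cuffdiff 2.2.1, TopHat2 2.1.1, SAMtools 0.1.18 and Bowtie2 2.2.8 were used with the build mm10, per the submitters' processing notes. Their parameters, the annotation and the scaling between libraries are not given in the sources used here.

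Wild-type levels were averaged over the male and the female library. The families, marker lists and the rule for naming genes were chosen with earlier results of these data known. Named were the 30 highest genes, the highest members of each of 71 families (up to 4), the defining and highest markers, the 8 genes in each direction with the largest male and female difference at a mean of at least 5 FPKM, the 3 altered genes, and genes past the threshold that lead a family. The same choice outside small RNA genes and all other names were added after seeing the data.

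The wild-type pair has 1 library per sex and no test. Both tests used limma 3.58.1 in R 4.3.3 (lmFit, eBayes with trend) on log2(FPKM + 1), over the 11537 genes whose mean over 8 libraries reached 1 FPKM. They were two-sided, with Benjamini-Hochberg adjustment over all genes and a threshold of 0.05. Sex was tested in the 6 mutant libraries with genotype as a term, and wild-type against the mean of the mutants with sex as a term. The tests were also run on simulated data with independent normal noise of the fitted spread and no genotype or batch differences. There 99% to 100% of the added changes passed, with 16 false calls for sex and 9 for wild-type. As the noise followed the model, this cannot show how reliable the calls in the real libraries are. The 2 wild-type libraries limit precision, and intervals of counts cannot be given.

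Gene positions, types and merged exon lengths came from GENCODE M21 (mm10) by symbol, which placed 11013 of the 11455 genes at a wild-type mean of 1 FPKM or more. Promoter windows are from RefSeq. Copies were aligned locally with Biopython. Mitochondrially encoded genes were not analysed here, and some genes are not reported here. Alternatives were pseudocounts, filters, scalings, other model terms and each library left out.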

Additional observations from a re-analysis of the deposited data

Results flagged for a closer look

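In 3 of the genes named for their male and female difference the wild-type pair went against all 3 mutant pairs. Those genes came from lists of 16 each, for all genes and outside small RNA genes. Of the 77 genes over 2-fold apart in wild-type, 20 had the same sign in 0 of the 3 mutant pairs, with differences of 0 included. Some of the opposite differences below are near 0, and none of the reversals was tested. Mir8094 was higher in the wild-type male by 5.54 on the log2(FPKM + 1) scale, while the male minus female differences were -5.68 in St6galnac6-/-, -0.19 in B3galt5D116A and -6.29 in B3gnt7-/-. Apoo-ps was higher in the wild-type male by 1.10, against differences of -2.29, -0.04 and -0.50 in the same order. Rmnd1 had a wild-type difference of -1.11, against 0.36, 0.08 and 0.09.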

How the results depend on the processing

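The labels carry no replicate numbers, so no pairing beyond sex and genotype was possible. Libraries were matched by their labelled sex or genotype, as a term of each test. The correlation of the wild-type libraries, 0.984, was 0.971 with a pseudocount of 0.1, 0.991 with a pseudocount of 5, 0.994 with no filter, 0.979 at a mean of at least 5 FPKM and 0.990 without small RNA genes. The 77 genes over 2-fold apart became 153 with a pseudocount of 0.1, 38 with a pseudocount of 5 and 44 at a mean of at least 5 FPKM, and stayed within 1.5 times of 77 with no filter, both other scalings or no small RNA genes. The number of genes holding 50% of the FPKM sum was 312 to 320 in single libraries. The count of genes that differed by sex, 6, was 0 with no filter and 6 to 13 when 1 library was left out. The count against the mutants, 21, was 12 with no filter (0 of them shared with the 21), 11 with a constant prior variance, 40 with no sex term, 32 without small RNA genes, and 2 to 68 when 1 library was left out. Causes were not tested. Leaving out small RNA genes was chosen after seeing the data. Scaling to a common sum cannot change the order within a library, so it was not run for families. The count of families with the same highest member and the percent of shared highest genes moved by less than 1.5 times in each alternative run. Depth is unknown, so levels near 0 set no limit on absence.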
